A study of Mus musculus with 11 samples.

Results

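The 9 genes of the membrane adenylyl cyclases, Adcy1 to Adcy9, were followed isoform by isoform in hearts of CD mice and their WT littermates, with and without JZL184. Members were the genes of the count table whose Ensembl identifier, without its version, carries one of these symbols in GENCODE mouse release 21. All 9 were found among the 22608 genes of the table, and 7 of them passed the filter on low values that left 11319 genes for testing. Adcy2 and Adcy8 did not pass it and are given by their values, with a fit without the filter for Adcy8.

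Ventricle RNA was sequenced from 11 male mice of 8 to 16 weeks, in 4 groups. WT VEH (n = 2) and WT JZL184 (n = 3) were littermates with the strain label C57BL/6, and CD VEH (n = 3) and CD JZL184 (n = 3) were WBS-CD mice, a model of Williams-Beuren syndrome. Both genotypes were kept on a C57BL/6J background, per the methods. CD mice lack 1 copy of the chromosome 5 interval from Gtf2i to Fkbp6 in all cells, so that the deletion is not restricted to the heart. JZL184, an inhibitor of the monoacylglycerol lipase that degrades the endocannabinoid 2-arachidonoylglycerol, was injected intraperitoneally at 8 mg/kg once a day for 10 days. Control mice are called vehicle-treated in sample titles and methods, and untreated in the treatment label. No adenylyl cyclase gene lies in the deleted interval, and the 14 tested interval genes were lower in each of the 6 CD mice than in any of the 5 WT mice. Total counts per mouse lay between 69660232 and 92251443, of which 36.4% to 46.6% came from mitochondrial genes. Mice are named below by the letter that the count table gives them within a group: C and D in WT VEH, A, B and D in WT JZL184, and A, C and E in both CD groups, and values follow that order.

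Adenylyl cyclases convert ATP into cyclic AMP (cAMP), the second messenger of β-adrenergic stimulation. The stimulatory G protein, released by an activated receptor, turns them on, and cAMP then opens the way to protein kinase A, which phosphorylates calcium channels, phospholamban and troponin I and so raises the force and rate of the heart. All membrane isoforms answer to the stimulatory G protein but differ in their other regulators. Adcy5 and Adcy6, the main isoforms of cardiomyocytes, are inhibited by calcium and by the inhibitory G protein. Adcy1, Adcy3 and Adcy8 respond to calcium and calmodulin, Adcy2, Adcy4 and Adcy7 are potentiated by G protein βγ subunits, and Adcy9 stands apart for its low sensitivity to forskolin.

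The genes are spread over 7 chromosomes, with positions here in GRCm38. In the calcium-inhibited pair, Adcy5 (ENSMUSG00000022840) spans chr16:35154877-35305738 on the plus strand and Adcy6 (ENSMUSG00000022994) spans chr15:98589973-98610076 on the minus strand. Adcy9 (ENSMUSG00000005580) lies at chr16:4287529-4420498 on the minus strand. Among the calmodulin-stimulated isoforms, Adcy1 (ENSMUSG00000020431) lies at chr11:7063489-7178506 on the plus strand, Adcy3 (ENSMUSG00000020654) at chr12:4133103-4213525 on the plus strand and Adcy8 (ENSMUSG00000022376) at chr15:64697084-64922296 on the minus strand. Of the βγ-stimulated isoforms, Adcy2 (ENSMUSG00000021536) lies at chr13:68620043-68999541 on the minus strand, Adcy4 (ENSMUSG00000022220) at chr14:55769057-55784095 on the minus strand and Adcy7 (ENSMUSG00000031659) at chr8:88272403-88329962 on the plus strand. Adcy3 shares 17522 bp with Cenpo on the opposite strand, which averaged 2.02 CPM, and Adcy8 overlaps Gm21798 on the opposite strand, which averaged 0.0849 CPM. These overlaps are of whole gene spans, introns included, and the overlap of exons was not measured. Counts came from transcript sequences, and whether strand was used is not given in the sources used here. Reads from shared exon sequence, if any, may therefore not be told apart.

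Promoter windows of 4 isoforms are shown because 3 of them (Adcy1, Adcy5 and Adcy9) were lower in vehicle-treated CD hearts while Adcy4 was not. Each is the stretch of 250 bases before a transcription start, from RefSeq on GRCm38.p6, read 5′ to 3′ on the strand of the gene. Capitals mark the GC box GGGCGG and the cAMP response element half-site TGACG on either strand, so that the reverse complements CCGCCC and CGTCA are capitals too. No capitals appear in the Adcy4 window because neither motif is in it.
Adcy5, chr16:35154614-35154863, plus strand: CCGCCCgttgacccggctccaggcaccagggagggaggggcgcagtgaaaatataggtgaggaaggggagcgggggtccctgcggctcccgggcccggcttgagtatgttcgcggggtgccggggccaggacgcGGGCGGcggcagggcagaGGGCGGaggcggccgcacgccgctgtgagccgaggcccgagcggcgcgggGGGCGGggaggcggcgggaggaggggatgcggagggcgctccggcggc
Adcy9, chr16:4420499-4420748, minus strand: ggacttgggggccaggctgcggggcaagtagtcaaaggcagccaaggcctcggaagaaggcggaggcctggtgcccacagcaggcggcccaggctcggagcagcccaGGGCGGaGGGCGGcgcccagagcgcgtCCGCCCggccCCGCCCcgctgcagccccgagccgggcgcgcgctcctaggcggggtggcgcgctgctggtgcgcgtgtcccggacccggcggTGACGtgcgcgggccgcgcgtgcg
Adcy1, chr11:7063183-7063432, plus strand: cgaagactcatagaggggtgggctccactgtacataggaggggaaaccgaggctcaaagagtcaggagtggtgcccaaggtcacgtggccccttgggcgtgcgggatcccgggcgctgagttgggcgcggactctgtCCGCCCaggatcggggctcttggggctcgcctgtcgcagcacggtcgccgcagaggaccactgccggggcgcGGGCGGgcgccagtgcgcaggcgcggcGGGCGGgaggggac
Adcy4, chr14:55784073-55784322, minus strand: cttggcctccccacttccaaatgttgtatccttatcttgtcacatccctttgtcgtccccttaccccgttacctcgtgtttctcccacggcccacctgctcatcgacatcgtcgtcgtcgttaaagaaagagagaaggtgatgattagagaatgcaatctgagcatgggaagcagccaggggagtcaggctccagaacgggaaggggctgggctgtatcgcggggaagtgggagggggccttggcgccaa
The windows of Adcy5 and Adcy9 held 4 GC boxes each and that of Adcy1 held 3. GC content was 78.0% for Adcy5, 78.8% for Adcy9, 71.2% for Adcy1 and 56.0% for Adcy4, beside a median of 52.4% over 32851 windows of the same length. Windows of isoforms without a lower call were GC-rich too, at 68.8% for the first Adcy3 window and 73.2% for that of Adcy2, which was not tested. At least 1 GC box was present in 32.7% of those windows and in 6 of the 10 windows of adenylyl cyclase genes (Adcy1, Adcy2, Adcy3, Adcy5, Adcy7 and Adcy9, of 7 genes with a window). The half-site TGACG, the core bound by CREB, was found in the windows of Adcy9 and Adcy7, and in 17.8% of all windows. The motif AGATAA of GATA factors, searched on both strands like the others, was found in the window of Adcy4 and in 9.99% of all windows. Matches of a motif were counted also where they overlap, and a match describes letters and not a bound site.

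In vehicle-treated mice, transcripts of both calcium-inhibited isoforms, of Adcy9 and of Adcy1 were lower in CD than in WT hearts. By edgeR's quasi-likelihood test, 4 of the 7 tested isoforms fell at an adjusted p under 0.05, in a comparison in which 15.4% of all tested genes fell and 30.4% changed in either direction. No isoform rose (0 of 7), where 15.0% of all tested genes did. With unadjusted p under 0.05, 1 isoform (Adcy4) was higher, and DESeq2 also called 0 higher and 4 lower. The median log2 fold-change of the 7 isoforms was -0.43, against 0.01 over all tested genes. The levels of CD VEH and WT VEH mice did not overlap for 6 of the 7, Adcy7 being the exception. Of these 6, Adcy3 and Adcy4 were not called (edgeR adjusted p = 0.277 and 0.104). The share of all tested genes without overlap was not counted, so the 6 cannot be set against it.

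JZL184 was followed by higher Adcy5, Adcy6 and Adcy9 and lower Adcy4 in CD mice, and by the opposite in WT mice. In CD mice, edgeR called 3 of the 7 tested isoforms higher and 1 lower after JZL184, beside 16.8% of tested genes higher and 17.0% lower (33.8% in either direction). In WT mice, 1 isoform (Adcy4) was called higher and 4 (Adcy1, Adcy5, Adcy6 and Adcy9) lower, beside 15.4% and 14.0% of tested genes (29.4% in either direction). The genotype by treatment interaction, which is the JZL184 effect in CD mice minus that in WT mice, passed the threshold for 6 of 7 isoforms, 4 higher and 2 lower. That comparison called 51.5% of all tested genes, 25.3% higher and 26.2% lower, so a call was common in it. CD VEH mice enter both CD comparisons, and WT VEH mice enter both the vehicle comparison of genotypes and the WT treatment comparison, so these are not independent of each other.

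Between CD and WT mice that all received JZL184, which shares no mouse with the vehicle comparison, the order of the groups was turned around for Adcy6 and Adcy9. Both were higher in CD JZL184 than in WT JZL184, while Adcy3, Adcy4 and Adcy7 were lower. These 5 calls among 7 isoforms (2 higher and 3 lower) stood beside 18.2% of tested genes higher and 20.1% lower, or 38.3% in either direction. The plot of log2 fold-changes gives each isoform in every comparison.

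**Figure D1:**
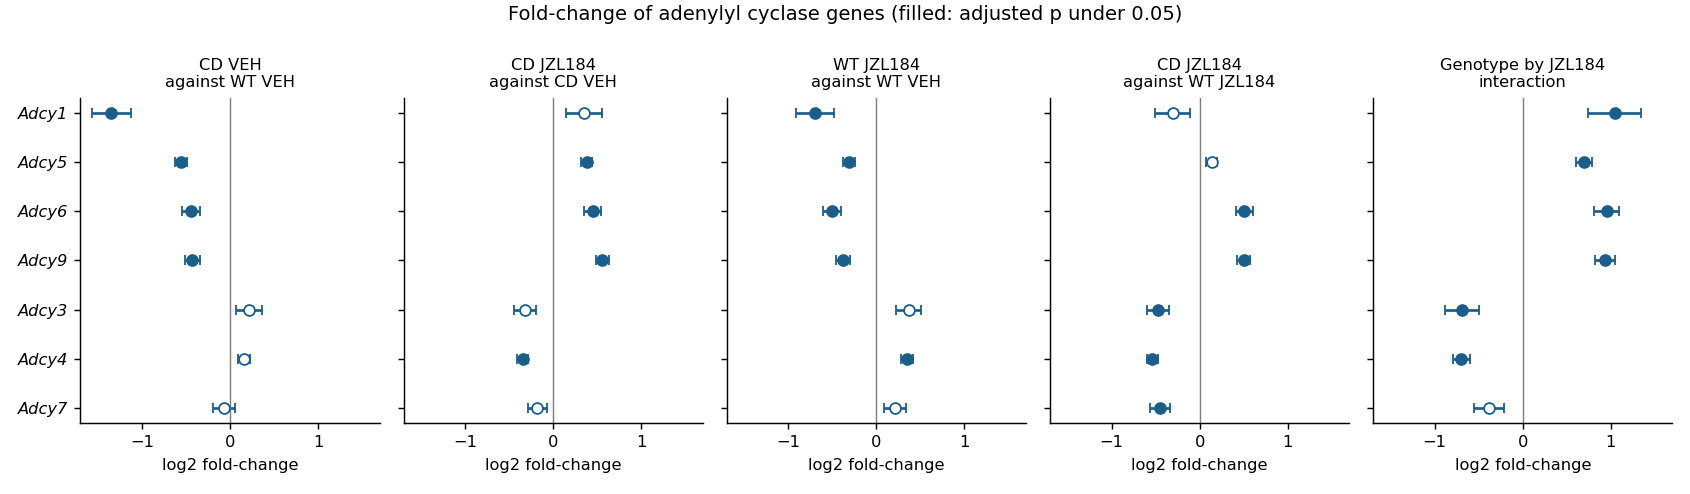
Log2 fold-change of the 7 tested adenylyl cyclase genes (horizontal axis) in the 4 group comparisons and the interaction, with bars of 1 standard error and filled points for an edgeR adjusted p under 0.05. Adcy5, Adcy6 and Adcy9 lie left of 0 for CD VEH against WT VEH and for WT JZL184 against WT VEH, and right of 0 for CD JZL184 against CD VEH, with Adcy6 at -0.44, -0.50 and 0.45.

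Adcy6 was the most abundant isoform in each mouse. Its levels were 194 and 191 CPM (CPM is the read count scaled to a shared library size by TMM factors) in WT VEH and 145, 146 and 134 CPM in CD VEH. The groups did not overlap, and Adcy6 fell by 26.4% in CD VEH (log2 fold-change -0.44, SE 0.10, adjusted p = 0.0107). In CD JZL184 the levels were 199, 177 and 203 CPM, higher in each mouse than in any CD VEH mouse, with a log2 fold-change of 0.45 (SE 0.09, adjusted p = 0.00578). WT JZL184 mice had 143, 115 and 150 CPM, below both WT VEH mice, and the log2 fold-change was -0.50 (SE 0.10, adjusted p = 0.00673). Mouse B had the lowest level of the series. Between treated groups, Adcy6 was higher in CD JZL184 by 0.51 on the log2 scale (SE 0.09, adjusted p = 0.00233). The level range of CD JZL184 enclosed the values of both WT VEH mice, a pair of groups that was not tested. WT VEH held 2 mice, and without mouse C or mouse D of that group the lower Adcy6 of CD VEH lost its call (adjusted p = 0.0779 and 0.0572) with log2 fold-changes of -0.43 and -0.45. For WT JZL184 the lower level lost its call without mouse C (adjusted p = 0.0572).

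Adcy5, the other calcium-inhibited isoform, had 59.1 and 62.3 CPM in WT VEH and 40.1, 44.4 and 39.2 CPM in CD VEH. The 2 groups were well apart, and Adcy5 fell by 32.1% in CD VEH (log2 fold-change -0.56, SE 0.07, adjusted p = 0.00155), a call that was kept without any single mouse. CD JZL184 mice had 53.3, 53.1 and 54.8 CPM, which was above each CD VEH mouse and below both WT VEH mice. The log2 fold-change for JZL184 in CD mice was 0.38 (SE 0.06, adjusted p = 0.00245). In WT JZL184 the levels were 51.7, 47.6 and 47.2 CPM, below WT VEH by 0.31 on the log2 scale (SE 0.07, adjusted p = 0.00841). That call was lost without WT VEH mouse C (adjusted p = 0.0505) or mouse D (adjusted p = 0.0722), and in a model of these 2 groups alone (adjusted p = 0.054). CD JZL184 and WT JZL184 did not overlap in Adcy5, but the difference of 0.14 (SE 0.06) missed the threshold with an adjusted p = 0.0974, and passed it at 0.0368 without WT JZL184 mouse A. With an offset for gene length the difference was 0.045 (adjusted p = 0.616).

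Adcy9, the isoform with low forskolin sensitivity, was high and low in the same groups as Adcy6. It had 16.9 and 17.1 CPM in WT VEH and 12.41, 13.47 and 11.95 CPM in CD VEH, with no overlap. Adcy9 fell by 25.7% in CD VEH (log2 fold-change -0.43, SE 0.08, adjusted p = 0.00517), and without WT VEH mouse C the adjusted p was 0.0514. CD JZL184 mice had 17.9, 17.9 and 19.8 CPM, the highest Adcy9 levels of the 11 mice. The log2 fold-change against CD VEH was 0.56 (SE 0.07, adjusted p = 0.00201). WT JZL184 mice had 13.05, 12.03 and 14.12 CPM, below WT VEH by 0.38 on the log2 scale (SE 0.08, adjusted p = 0.00827). Without WT VEH mouse C or D this adjusted p was 0.0592 or 0.0562. Under JZL184 the 2 genotypes differed by 0.50 (SE 0.07, adjusted p = 0.000996), with each CD mouse above each WT mouse.

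Adcy1, a calcium and calmodulin-stimulated isoform best known from neurons, was scarce in the heart but showed the widest genotype difference of the 7 in vehicle-treated mice. WT VEH mice had 6.65 and 5.80 CPM, and CD VEH mice 2.43, 2.53 and 2.35 CPM. Adcy1 fell by 60.8% in CD VEH (log2 fold-change -1.35, SE 0.22, adjusted p = 0.0033), and the call was kept without any single mouse. CD JZL184 mice had 2.93, 3.46 and 2.92 CPM, each above CD VEH and below WT VEH, and the difference of 0.35 from CD VEH (SE 0.21, adjusted p = 0.204) missed the threshold. It passed at 0.0273 without WT JZL184 mouse B, a mouse of neither group, which enters the estimate of the spread that all groups share. It also passed in a model of the 2 CD groups alone (adjusted p = 0.0328), and with an offset for gene length the difference was 0.12 (adjusted p = 0.73). WT JZL184 mice had 3.27, 5.49 and 2.81 CPM, mouse B being near WT VEH and the other 2 far below. The log2 fold-change of -0.70 against WT VEH (SE 0.22, adjusted p = 0.0331) lost its call without mouse A (0.0688) or D (0.0869) of WT JZL184 and without mouse C (0.187) or D (0.0874) of WT VEH. It was also lost with an offset for gene length (adjusted p = 0.179) and in a model of these 2 groups alone (adjusted p = 0.105). Between treated groups Adcy1 overlapped, with a log2 difference of -0.31 (SE 0.20, adjusted p = 0.245) that became 0.03 without WT JZL184 mouse B.

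Adcy3, the calmodulin-responsive isoform known from olfactory cilia, was called between the treated groups. It had 3.85 and 3.51 CPM in WT VEH and 4.42, 4.18 and 4.19 CPM in CD VEH, which did not overlap, although the log2 difference of 0.21 (SE 0.15) had an adjusted p = 0.277. CD JZL184 mice had 3.09, 3.53 and 3.61 CPM and WT JZL184 mice 3.93, 5.70 and 4.61 CPM. Each treated CD mouse was thus below each treated WT mouse, with a log2 difference of -0.48 (SE 0.13, adjusted p = 0.0133). This adjusted p was 0.0548 without CD JZL184 mouse A and 0.0516 without WT JZL184 mouse B. JZL184 effects within a genotype missed the threshold, at -0.32 in CD mice (SE 0.13, adjusted p = 0.0704) and 0.37 in WT mice (SE 0.15, adjusted p = 0.0768). The first passed at 0.0311 without WT JZL184 mouse A and at 0.0298 without mouse B, and the second at 0.0126 without mouse A. Without WT JZL184 mouse B the effect in WT mice was 0.22 (adjusted p = 0.241). The effect in CD mice also passed in a model of the 2 CD groups alone (0.0246) and with an offset for gene length (0.0423) or GC content (0.0435).

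Adcy4, βγ-stimulated, was called in 3 of the 4 group comparisons, in the opposite direction to Adcy6. It had 18.6 and 18.5 CPM in WT VEH and 20.2, 19.6 and 22.3 CPM in CD VEH. The groups did not overlap, but the log2 difference of 0.16 (SE 0.07) had an adjusted p = 0.104, and was 0.10 (adjusted p = 0.334) without CD VEH mouse E. CD JZL184 mice had 16.2, 16.6 and 15.9 CPM, the lowest Adcy4 levels of the 11 mice, and Adcy4 fell by 21.5% against CD VEH (log2 fold-change -0.35, SE 0.06, adjusted p = 0.00327). In WT JZL184 the levels were 22.4, 23.9 and 24.5 CPM, the highest of the series, and the rise from WT VEH was 0.35 on the log2 scale (SE 0.07, adjusted p = 0.00621). Without WT VEH mouse C that adjusted p was 0.0557. Treated CD mice did not overlap with treated WT mice and were lower (log2 fold-change -0.54, SE 0.06, adjusted p = 0.00036).

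Adcy7, the βγ-stimulated isoform known from leukocytes, was called in 1 of the 4 group comparisons. It had 15.7 and 15.3 CPM in WT VEH and 14.1, 13.9 and 16.5 CPM in CD VEH, which overlapped (log2 difference -0.06, SE 0.12, adjusted p = 0.713). CD JZL184 mice had 11.8, 13.7 and 13.7 CPM and WT JZL184 mice 14.6, 19.9 and 19.1 CPM. Treated CD mice did not overlap with treated WT mice and were lower (log2 fold-change -0.45, SE 0.11, adjusted p = 0.00887). The JZL184 effect was -0.18 in CD mice (SE 0.11, adjusted p = 0.228) and 0.21 in WT mice (SE 0.12, adjusted p = 0.226), and the latter was 0.34 and passed at 0.0192 without WT JZL184 mouse A, but was 0.13 (adjusted p = 0.502) without mouse B. The effect in CD mice was -0.09 without CD VEH mouse E and -0.11 without CD JZL184 mouse A.

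Adcy8 and Adcy2 were below the filter for testing. Adcy8, calmodulin-stimulated like Adcy1, had 17 to 65 counts per mouse. Its levels were 0.608 and 0.646 CPM in WT VEH, 0.265, 0.454 and 0.329 CPM in CD VEH, 0.352, 0.239 and 0.393 CPM in WT JZL184 and 0.258, 0.663 and 0.483 CPM in CD JZL184. Both WT VEH mice were above each CD VEH and each WT JZL184 mouse, and CD JZL184 overlapped with the other 3 groups. Adcy2, βγ-stimulated like Adcy4, had 5 to 19 counts and between 0.0614 and 0.236 CPM, and its groups overlapped, apart from the pair of WT VEH and WT JZL184, where the lower WT VEH mouse had 0.1304 CPM and the highest WT JZL184 mouse 0.1302 CPM. At these depths 3 counts, the limit that a count of 0 allows, correspond to 0.0306 to 0.0435 CPM, for counting error only. In a fit with no filter on low counts, the vehicle comparison gave Adcy8 a log2 difference of -0.84 (SE 0.36) with an edgeR adjusted p = 0.129. In that fit the interaction of Adcy8 was 1.36 (SE 0.49), which passed the threshold with an adjusted p = 0.0452.

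**Figure D2:**
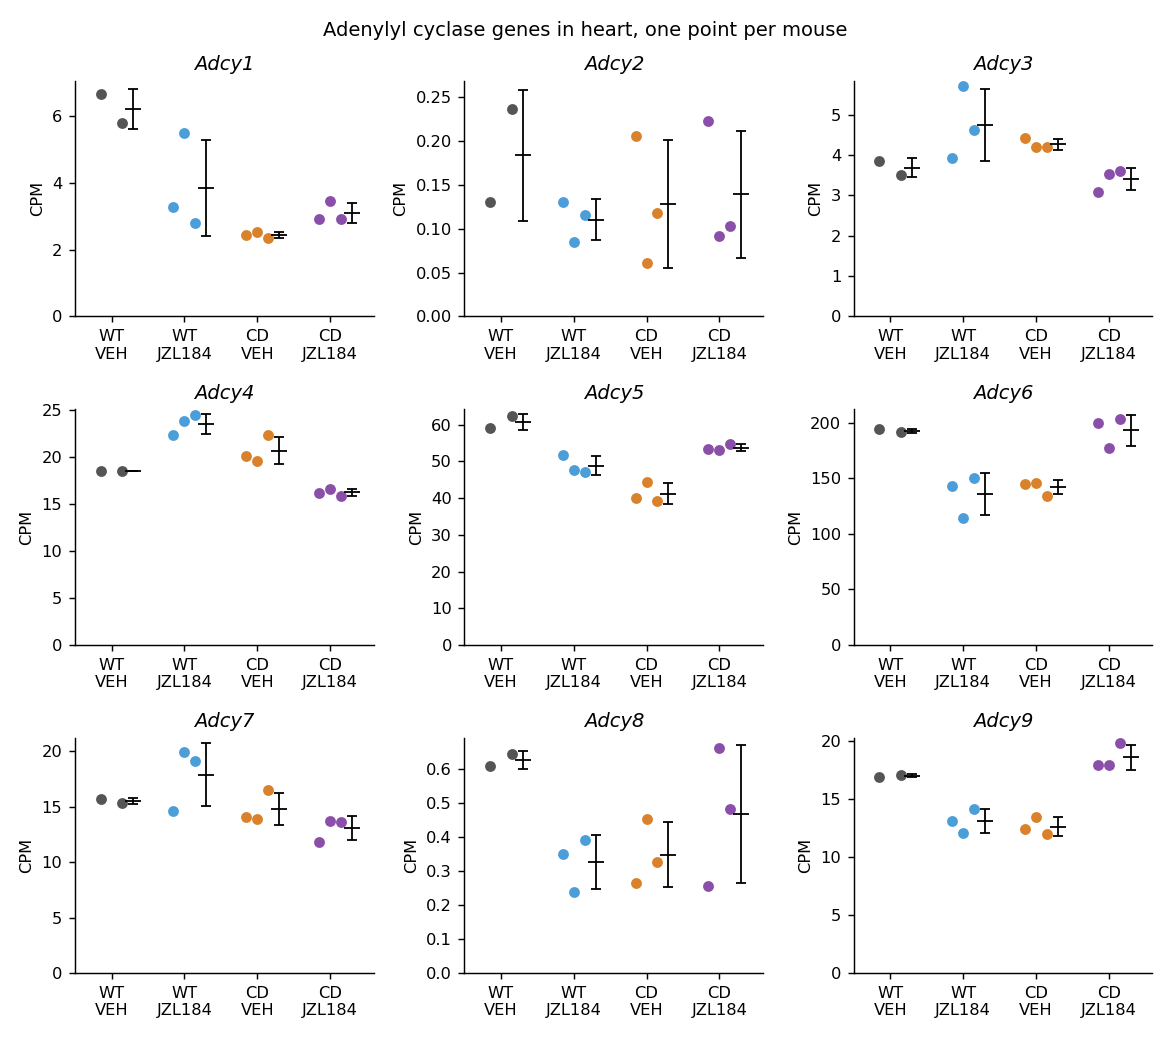
Level of each adenylyl cyclase gene in CPM (vertical axes, from 0) with 1 point per mouse in the 4 groups, and the group mean with bars of 1 SD beside the points. Adcy6 and Adcy9 are high in WT VEH and CD JZL184 and low in the other 2 groups, Adcy5 in CD JZL184 lies between WT VEH and WT JZL184, Adcy4 is low in CD JZL184 and high in WT JZL184, and Adcy1 is highest in WT VEH at 6.65 and 5.80 CPM.

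The interaction term, fitted over the 11 mice, showed how far the JZL184 effect differed between genotypes. It was 0.95 for Adcy6 (SE 0.14, edgeR adjusted p = 0.000359), 0.93 for Adcy9 (SE 0.11, adjusted p = 0.000158), 0.70 for Adcy5 (adjusted p = 0.000236) and 1.04 for Adcy1 (adjusted p = 0.0125), all on the log2 scale. For the calcium-inhibited pair and Adcy9 each treatment effect on its own also passed the threshold, with opposite signs in CD and WT mice. It was -0.70 for Adcy4 (adjusted p = 0.00025) and -0.69 for Adcy3 (adjusted p = 0.0114), and -0.39 for Adcy7 (adjusted p = 0.0717), which was not called. With an offset for gene length the Adcy1 term was 0.59 and lost its call (adjusted p = 0.179). Without WT VEH mouse C the Adcy1 term had an adjusted p of 0.0537, without WT VEH mouse D the Adcy3 term had 0.0548, and without WT JZL184 mouse A the Adcy7 term passed at 0.00542.

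Levels of different isoforms were compared per length, as CPM divided by the length of the longest coding transcript in kb. By that scale Adcy6 averaged 27.1 CPM per kb over the 11 mice, followed by Adcy5 with 7.17, Adcy4 with 5.68, Adcy9 with 3.05, Adcy7 with 2.57, Adcy3 with 0.818, Adcy1 with 0.301, Adcy8 with 0.061 and Adcy2 with 0.0323. Adcy6 was above Adcy5 in every mouse, whereas the ranges of Adcy5 and Adcy4, of Adcy9 and Adcy7, and of Adcy8 and Adcy2 overlapped over the 11 mice. Within groups, Adcy5 exceeded Adcy4 in each WT VEH mouse (1.59-fold to 1.68-fold) and each CD JZL184 mouse (1.60-fold to 1.72-fold) and was on both sides of it in the other 2 groups. The mean of Adcy9 was above that of Adcy7 in WT VEH (3.41 against 2.60 CPM per kb) and below it in WT JZL184 (2.63 against 3.01 CPM per kb). With the mean length of coding transcripts in place of the longest, Adcy4 came before Adcy5. The order is a description, with no test.

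The sum of the 9 isoforms was 53.2 ± 0.0913 CPM per kb in WT VEH (SD, n = 2), 43.2 ± 2.97 in WT JZL184 (SD, n = 3), 41.4 ± 0.88 in CD VEH (SD, n = 3) and 51.2 ± 2.36 in CD JZL184 (SD, n = 3). Adcy6 alone gave 59.9% of the sum in WT VEH, 51.9% in WT JZL184, 56.6% in CD VEH and 62.3% in CD JZL184. The share of Adcy4 was 9.95%, 15.7%, 14.3% and 9.08% in the same order, so that it was larger where the share of Adcy6 was smaller. Adcy5 kept 14.2% to 16.3% as a group mean. The share of Adcy6 depends on the length taken, and in WT VEH it was 74.7% with the mean length of coding transcripts.

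Because the isoforms did not change alike, ratios within a mouse also changed. Adcy6 exceeded Adcy4 per length 6.02-fold in WT VEH and 6.90-fold in CD JZL184, but 3.34-fold in WT JZL184 and 3.99-fold in CD VEH. The ranges of the first pair of groups (5.98 to 6.06, and 6.19 to 7.39) did not overlap those of the second (2.78 to 3.69, and 3.49 to 4.32). The ratio of Adcy6 to Adcy9 moved little, with group means of 9.34 in WT VEH, 8.53 in WT JZL184, 9.27 in CD VEH and 8.58 in CD JZL184.

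**Figure D3:**
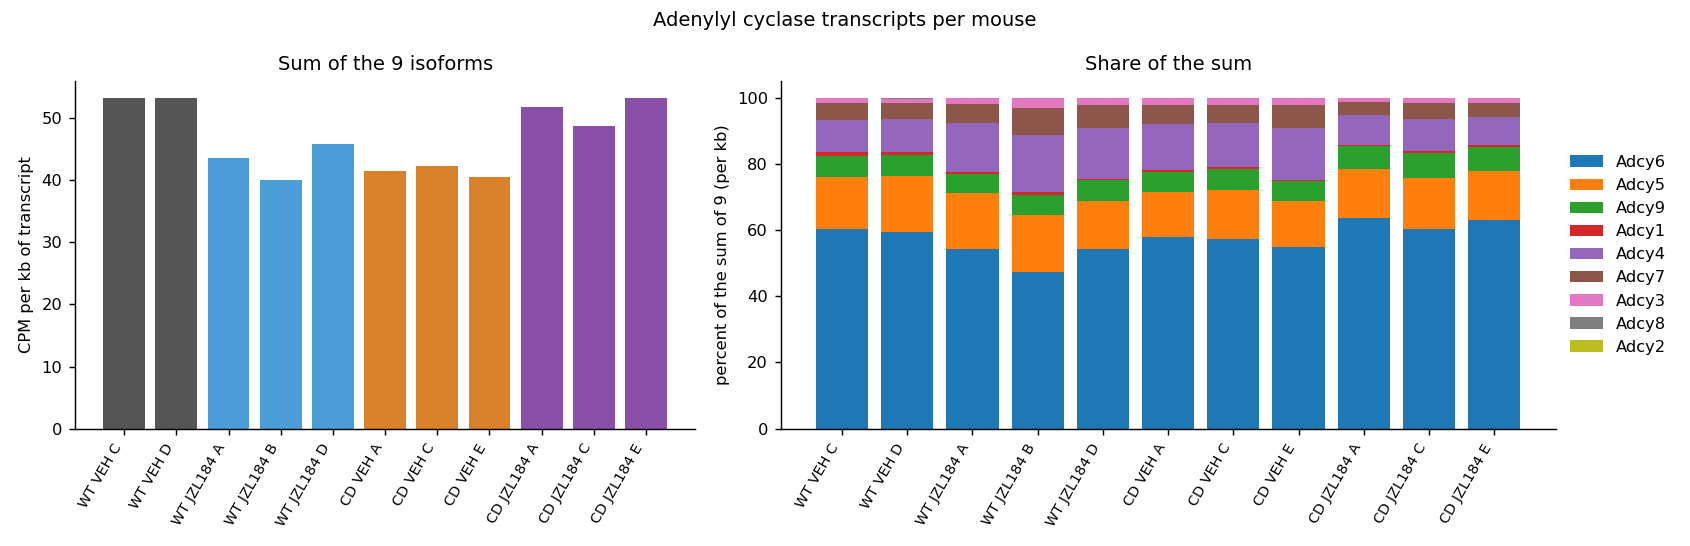
Left, the sum of the 9 adenylyl cyclase isoforms in each mouse in CPM per kb of transcript, and right, the percent of that sum given by each isoform in the same mouse. The sum lies between 40.0 and 45.9 in WT JZL184 and CD VEH mice and between 48.7 and 53.3 in WT VEH and CD JZL184 mice, and Adcy6 is the largest share in each bar.

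Cell type markers also differed between the groups. The RNA is from whole ventricle, in which fewer cells of a type and less RNA per cell cannot be told apart. Ventricular cardiomyocyte markers (Myh6, Tnnt2, Tnni3, Myl2, Actn2 and Ryr2) summed to 23240 to 32760 CPM over the 11 mice, so the defining markers of the labelled ventricle were present. Atrial markers (Myl7, Sln, Nppa, Myl4 and Bmp10) summed to 50.5 to 221 CPM, nearly all of it Nppa. In WT VEH, Nppa averaged 180 CPM of a mean sum of 182 CPM, and Myl4, the next highest, 1.47 CPM. The ventricular sum was 32020 to 32500 CPM in WT VEH, 23240 to 31710 in WT JZL184, 28060 to 30450 in CD VEH and 30830 to 32760 in CD JZL184. Of its 6 markers, 2 fell in CD VEH (Myh6 by 0.44 and Actn2 by 0.47 on the log2 scale), 3 fell in WT JZL184 against WT VEH, and 3 rose while 1 fell in CD JZL184 against CD VEH. Its markers did not all move one way, and Myl2 and Tnni3 differed by 0.24 in CD VEH (adjusted p = 0.0983 and 0.0911) and Tnnt2 by -0.10 (adjusted p = 0.511), while Ryr2 differed by -0.44 (adjusted p = 0.076). The part of cardiomyocyte content in the differences of Adcy5, Adcy6 and Adcy9 was not tested.

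The 5 endothelial markers (Pecam1, Cdh5, Kdr, Tie1 and Emcn) summed to 484 to 491 CPM in WT VEH, 744 to 768 in WT JZL184, 619 to 685 in CD VEH and 477 to 560 in CD JZL184. They were highest in WT JZL184 and next in CD VEH, as Adcy4 was, but the mean was 488 CPM in WT VEH and 522 CPM in CD JZL184, whereas Adcy4 was lower in CD JZL184 than in WT VEH. Of the 5, 4 rose in CD VEH, 4 fell after JZL184 in CD mice, 5 rose after JZL184 in WT mice and 5 were lower in CD JZL184 than in WT JZL184. Leukocyte markers (Ptprc, Csf1r, Lyz2, C1qa and Cd68) summed to 201 to 214 CPM in WT VEH, 265 to 457 in WT JZL184, 261 to 344 in CD VEH and 177 to 205 in CD JZL184. The group mean of Adcy7 was likewise highest in WT JZL184, but it was 14.8 CPM in CD VEH and 15.5 CPM in WT VEH, the other way round from the leukocyte sum. Fibroblast markers (Col1a1, Pdgfra, Dcn, Lum and Tcf21) summed to 494 to 524, 665 to 816, 605 to 693 and 473 to 511 CPM, and smooth muscle and pericyte markers (Myh11, Acta2, Tagln, Pdgfrb and Rgs5) to 577 to 583, 830 to 895, 790 to 911 and 561 to 575 CPM, with groups in the same sequence. No marker of these 5 lists was at 0 in any group. Within WT JZL184, mouse B had the lowest ventricular sum (23240 CPM) and the highest leukocyte (457 CPM) and fibroblast (816 CPM) sums, and also the lowest Adcy6 and the highest Adcy1, Adcy3 and Adcy7 of its group. The part of these cell types in the Adcy3, Adcy4 and Adcy7 results was not tested.

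**Figure D4:**
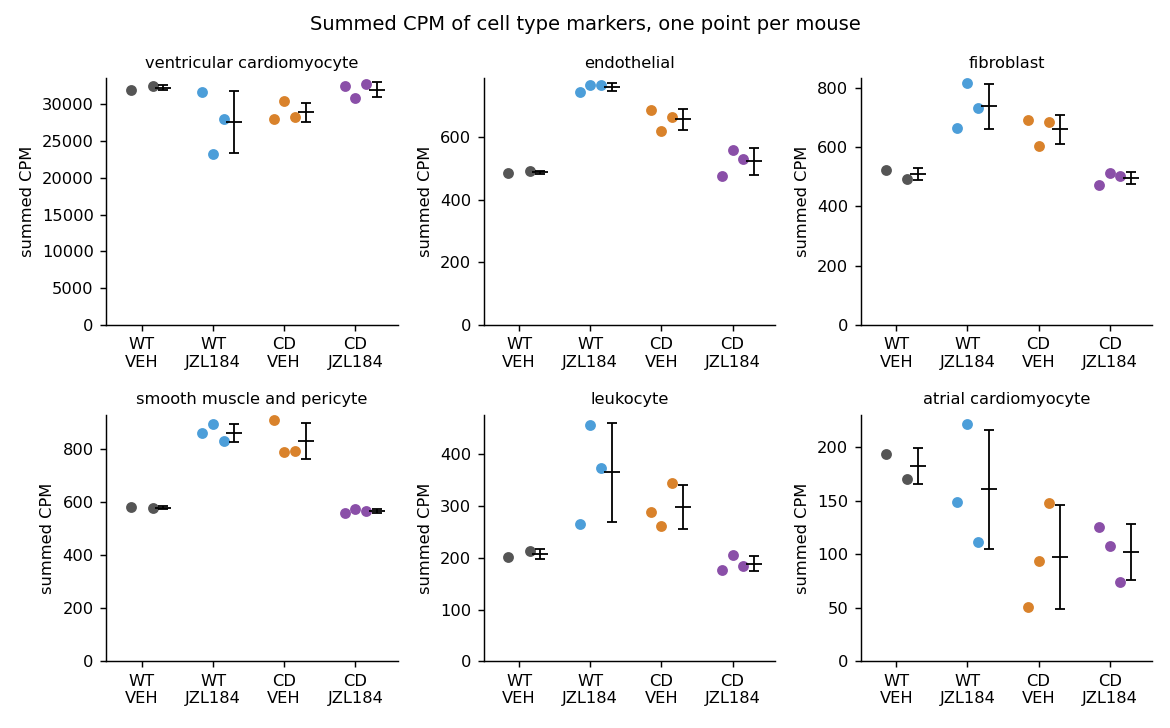
Summed CPM of 6 marker lists (vertical axes, from 0), 1 point per mouse, with the group mean and bars of 1 SD. Endothelial, fibroblast, smooth muscle and leukocyte sums are low in WT VEH and CD JZL184 and high in WT JZL184 and CD VEH, for example 484 to 491 CPM in WT VEH and 744 to 768 CPM in WT JZL184 for endothelial markers.

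The genes upstream and downstream of the cyclases were taken from a list of 62, of which 55 were tested. In CD VEH against WT VEH, 10 were higher and 18 lower, beside 15.0% and 15.4% of all tested genes, with a median log2 fold-change of -0.16. After JZL184, 13 were higher and 11 lower in CD mice, beside 16.8% and 17.0% of all tested genes. In WT mice 12 were higher and 16 lower, beside 15.4% and 14.0%. The differences below are log2 fold-changes of CD VEH against WT VEH, with the edgeR adjusted p. Upstream, Adrb1, the main β-adrenergic receptor gene of cardiomyocytes, differed by 0.08 (adjusted p = 0.663). The stimulatory G protein genes Gnas (0.11, adjusted p = 0.264) and Gnal (-0.19, adjusted p = 0.245) did not pass the test. Of 4 inhibitory G protein α genes, 2 were higher, with Gnai1 at 0.61 (adjusted p = 0.0231), and Gnao1 was lower at -0.35 (adjusted p = 0.02). Calmodulin genes, whose product stimulates Adcy1, Adcy3 and Adcy8, were higher for Calm2 (0.40, adjusted p = 0.00573) and Calm3 (0.24, adjusted p = 0.0116), 2 of 3.

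Downstream of cAMP, both catalytic subunit genes of protein kinase A fell, Prkaca by 0.32 (adjusted p = 0.006) and Prkacb by 0.19 (adjusted p = 0.0365). Both tested regulatory subunit genes, Prkar2a (-0.38, adjusted p = 0.00378) and Prkar1a (-0.33, adjusted p = 0.0286), fell as well, as did the inhibitor gene Pkib (-0.54, adjusted p = 0.048), 1 of 3 inhibitors. Anchoring proteins hold the kinase near its substrates, and 5 of 11 tested were lower and 1 higher, with Akap6 at -0.63 (adjusted p = 0.00853) and Akap9 at -0.39 (adjusted p = 0.027). Akap6, known for gathering the kinase, phosphodiesterases and cyclase at the cardiomyocyte nuclear envelope, averaged 148 CPM in WT VEH, 96.2 in WT JZL184, 95.8 in CD VEH and 146 in CD JZL184, and was high and low in the same groups as Adcy6. That pattern was not particular to Akap6. Prkaca averaged 164, 130, 131 and 167 CPM in the same order, and the cardiomyocyte marker Myh6 15150, 10780, 11150 and 15240 CPM. The phosphodiesterases that degrade cAMP were mixed, with 3 higher and 4 lower of 15, among them Pde1c at -0.61 (adjusted p = 0.014) and Pde7a at -0.57 (adjusted p = 0.0368). The cAMP-gated exchange factors split, Rapgef4 at -0.53 (adjusted p = 0.00436) and Rapgef3 at 0.25 (adjusted p = 0.0142). In the CREB family 2 of 6 were lower, the coactivator Crtc1 by 0.35 (adjusted p = 0.0212) and Atf1 by 0.33 (adjusted p = 0.00466). The soluble cyclase Adcy10, which bicarbonate rather than G proteins activates, had 4 to 18 counts per mouse and was not tested.

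**Figure D5:**
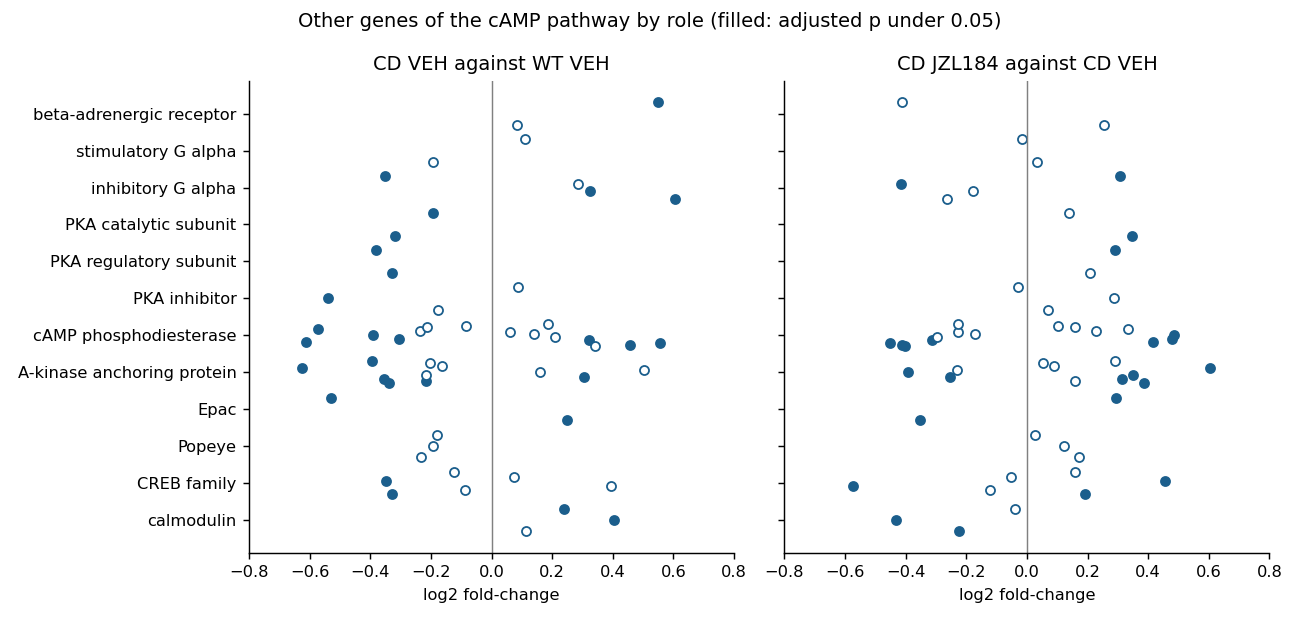
Log2 fold-change of the 55 tested genes of the cAMP pathway other than membrane cyclases (horizontal axes), by role, for CD VEH against WT VEH and CD JZL184 against CD VEH, with filled points for an edgeR adjusted p under 0.05. Both catalytic and both regulatory subunit genes of protein kinase A lie left of 0 in the first panel, with Prkaca at -0.32, and right of 0 in the second, with Prkaca at 0.35.

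The tested genes closest in pattern to each isoform were found by the root mean square difference of centred log2 CPM over the 11 mice, as a description. Nearest to Adcy6 were Svil (0.048), Insr (0.05) and Lmo7 (0.053), and to Adcy9 Glg1 (0.051), Pygb (0.054) and Myh14 (0.056). Adcy5 was closest to Anks1 (0.058), Sel1l (0.059) and Abcc9 (0.064), the last encoding the sulfonylurea receptor of the cardiac ATP-sensitive potassium channel. Adcy4 was closest to Akap2 (0.051), Sept11 (0.055) and the endothelial receptor gene Notch4 (0.062). For Adcy3 these were Ddr2 (0.052), Cemip2 (0.064) and Pip4k2a (0.064), and for Adcy7 Stab1 (0.063), Gsn (0.077) and Itga4 (0.083). Adcy1 had no gene as close, the nearest being Acsl6 (0.265), 0610040J01Rik (0.27) and Klhdc7a (0.277). Within the family, Adcy6 and Adcy9 differed by 0.088, Adcy5 and Adcy9 by 0.158, Adcy3 and Adcy4 by 0.131, and Adcy4 and Adcy6 by 0.455.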

How the data were processed

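RNA from the ventricles of 11 male mice was sequenced, with 2 mice in WT VEH and 3 in each other group, and each mouse was taken as a replicate. The table deposited by the authors gives an estimated count for each gene in each mouse and is not normalized. The submitters' processing notes and the methods give Salmon 0.7.2 on Ensembl release 85 of GRCm38 (mm10), with transcripts summed to genes by tximport. The number of columns without a group was 0, but their letters are in no sample label, so mice were not paired.

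After rounding, these counts were tested with edgeR 4.0.16 and limma 3.58.1 under R 4.3.3 (TMM factors, quasi-likelihood test, 1 model of 4 groups without covariates, Benjamini-Hochberg over the 11319 genes whose mean log2 CPM reached 1). The methods of the study used DESeq2, which served here as an alternative (DESeq2 1.42.0). Sums, shares and ratios over the members were left without a test, as the members were chosen with results known. Mice of 1 group differed by far more than sampling noise (chi-square of 22.6 to 125 per gene), so none was a copy of another. GENCODE mouse release 21 matched 22238 of 22608 genes. In the RefSeq promoter table, Adcy6 and Adcy8 had no window.

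The members, the pathway and marker lists and the rule for named genes were chosen with earlier results of these data known. The rule names all 9 members and Adcy10, up to 2 called genes per pathway role with the largest change in CD VEH against WT VEH, and the 3 genes nearest to each tested member. Gnas, Gnal and Adrb1 do not come from the rule and were picked with their values known. A few listed genes are not reported here. Alternatives were RLE and upper quartile factors, no filter or at least 10 counts in every mouse, DESeq2, a model of the compared groups alone, offsets for gene length and GC content (loess, span 0.5), no mitochondrial genes, an adjusted p under 0.01, other transcript lengths, and leaving out each mouse. On simulated counts for CD VEH against WT VEH (11299 genes), edgeR recovered 69.1% of log2 changes of 0.5 and 100% of log2 changes of 1. False calls were 4.07% for edgeR, and DESeq2 recovered the same shares with 11.8%. There 200 genes were changed, whereas 30.4% of tested genes were called in the measured counts. Whether the recovered shares and false calls hold for the measured counts, where spread differed between genes, was not tested.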

Additional observations from a re-analysis of the deposited data

Results flagged for a closer look

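The JZL184 effect differed between CD and WT mice, by edgeR's test of the interaction over all genes, for 6 isoforms. On the log2 scale the effect in CD mice minus that in WT mice was 0.933 for Adcy9, 1.045 for Adcy1, 0.696 for Adcy5 and 0.951 for Adcy6, and it was -0.688 for Adcy3 and -0.697 for Adcy4. For Adcy1 the call was lost with an offset for gene length (adjusted p = 0.179) or without WT VEH mouse C (0.0537), and for Adcy3 without WT VEH mouse D (0.0548). Of all tested genes, 51.5% passed the same test.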

How the results depend on the processing

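The calls of CD VEH against WT VEH rested on 2 WT VEH mice. The number of isoforms called there was 4 under each change of scaling, filter, tool or model, while 16.8% to 35.0% of all tested genes were called. It was also 4 without any 1 mouse of the other groups. Without 1 of the 2 WT VEH mice fewer isoforms were called, as were fewer of all tested genes, and the 4 log2 fold-changes kept their sign. For WT JZL184 against WT VEH it was 5, but 3 with a model of these 2 groups alone, 4 with an offset for gene length and between 0 and 6 when 1 mouse was left out. The 0 came without WT VEH mouse C, where edgeR gave 2 higher and 3 lower at an unadjusted p under 0.05 and 4.93% of all genes were called, and DESeq2 was not run without single mice. Over all tested genes, 14.6% were called in the model of these 2 groups alone and 28.2% with the offset for gene length. Without WT VEH mouse D fewer isoforms, and fewer of all tested genes, were called too. In these fits the lone WT VEH mouse is assumed to vary like the other groups. For CD JZL184 against CD VEH the number was 4, beside 33.8% of all tested genes. It was 6 with a model of these 2 groups alone (41.4% of all tested genes). With an offset for gene length (26.2%) or GC content (38.0%) it was 5. For the interaction the number was 6 of 7 tested isoforms, and 7 of 7 with upper quartile factors, each beside 51.5% of all tested genes. With no filter it was 7 of 9 (32.2% of all tested genes). With at least 10 counts in every mouse it was 7 of 8 (46.4%). Leaving out 1 mouse gave 4 to 6 calls for CD JZL184 against CD VEH, 4 to 6 for CD JZL184 against WT JZL184 and 5 to 7 for the interaction. With an adjusted p under 0.01 the 5 comparisons kept 3, 4, 4, 4 and 4 calls.

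Direction changed in 2 cases, neither of them called: Adcy7 in CD VEH against WT VEH was 0.045 with an offset for gene length, and Adcy1 in CD JZL184 against WT JZL184 was 0.034 without WT JZL184 mouse B and lay between -0.492 and 0.034 when 1 mouse was left out. The cause was not tested. With the mean length of coding transcripts the share of Adcy6 in WT VEH was 74.7% in place of 59.9%. Of the cAMP pathway genes in the vehicle comparison, 28 were called, 33 by DESeq2 and 20 with an offset for gene length. Over all tested genes the called shares were 30.4%, 34.6% and 23.3% in the same order. No paired analysis was possible because the columns of the count table carry no replicate number of the labels.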
